A study of Mus musculus with 2 samples.

Results

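Immediate early genes are transcribed within minutes of a stimulus without need of new protein. The members described here are the Fos genes Fos and Fosb, the Jun genes Jun, Junb and Jund, and Egr1, Ier2, Zfp36, Nr4a1 and Atf3, 10 genes of the 12393 that the array names singly. Every probe set (a group of short oligonucleotides read together as 1 value) whose only annotated gene was one of these was taken, which gave 11 probe sets of 20380 with a single gene symbol. Jun had 2 probe sets and each of the other 9 genes had 1. The members were chosen by name and not by their values, although earlier results of these arrays were known when they were listed. Most encode transcription factors, but Zfp36 encodes an RNA-binding protein, and the molecular role of Ier2 is less settled.

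The study hybridised femur total RNA, labelled c57Bl/6, to 2 oligonucleotide arrays, 1 for an allograft sample (tissue moved between animals of a species) and 1 for an autograft sample (tissue moved within an animal). The labels give neither the donor and recipient strains of each graft, nor the sex and age of the animals, the time after grafting, or how many animals a sample pools. With 1 array per graft type no test between them could be made, no difference has a replicate check, and this limits the precision of every value. Each value is an intensity in arbitrary units. The floor was set at 175, which is the median intensity over both arrays without the control probe sets. Lower values were raised to it before the log2 ratio of allograft over autograft was taken.

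Fos and Jun proteins pair through leucine zippers to form the AP-1 transcription factor, with Jun proteins able to pair with each other and Fos proteins needing a Jun partner. Egr1 and Nr4a1 are zinc finger factors of other families, Atf3 is a leucine zipper factor of the stress response, and the Zfp36 protein (tristetraprolin) binds AU-rich messenger RNAs and speeds their decay. In bone, Fos is required for osteoclast formation, and AP-1 proteins also act in osteoblasts. Transcripts of this class are short-lived, and in tissue they are known to respond to injury, growth factors, mechanical load and the handling of a sample.

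Of the 11 probe sets 10 were above the floor on both arrays and 1, that of Fosb, on the autograft array alone. As a group the genes read lower in the allograft sample: 8 of the 10 genes had a log2 ratio below 0 and 2 were slightly above it, with a median over the genes of -0.59 and a range of -1.40 to 0.08. By probe set, 8 of 11 were below 0, against 57.4% of all probe sets with at least 1 value above the floor. Over all genes above the floor on at least 1 array, 59.5% had a ratio below 0 and the median was -0.08. A single member probe set, that of Fos, was lower in the allograft sample by 2-fold or more, against 0.734% of all probe sets with at least 1 value above the floor, and 0 were at least 2-fold higher, against 1.14%. In bulk tissue, fewer cells of an expressing type and less RNA per cell cannot be told apart.

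The DNA just before the start of 5 members is shown because they mark both ends of the range of ratios: Fos, Zfp36 and Jund had the lowest log2 ratios, and Jun and Nr4a1 were the genes above 0. RefSeq promoter windows of assembly GRCm38.p6 were at hand for 8 of the 10 members. Each line gives the 120 bases before the annotated start, 5′ to 3′ on the gene's own strand. Capitals mark 4 motifs searched on both strands. They are TGACG (the core of the cyclic AMP response element), TGANTCA (a form of the AP-1 site), the CArG box and TATAAA. The CArG box is bound by serum response factor. The stretches lie at chr12:85473770-85473889 (+ strand) for Fos, chr7:28379229-28379348 (- strand) for Zfp36, chr8:70697619-70697738 (+ strand) for Jund, chr4:95052223-95052342 (- strand) for Jun and chr15:101266726-101266845 (+ strand) for Nr4a1.
Fos: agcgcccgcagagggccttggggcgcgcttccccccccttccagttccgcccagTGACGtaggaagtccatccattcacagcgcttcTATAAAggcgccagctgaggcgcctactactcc
Zfp36: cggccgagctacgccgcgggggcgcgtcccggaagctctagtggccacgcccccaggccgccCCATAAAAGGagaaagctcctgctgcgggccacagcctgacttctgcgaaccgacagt
Jund: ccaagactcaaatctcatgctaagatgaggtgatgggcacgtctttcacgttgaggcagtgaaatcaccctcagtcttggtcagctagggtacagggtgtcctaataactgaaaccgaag
Jun: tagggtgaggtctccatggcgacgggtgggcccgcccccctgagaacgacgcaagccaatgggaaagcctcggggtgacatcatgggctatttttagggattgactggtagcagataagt
Nr4a1: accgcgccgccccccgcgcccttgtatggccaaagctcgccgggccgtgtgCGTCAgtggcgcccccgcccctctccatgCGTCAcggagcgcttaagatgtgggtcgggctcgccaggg

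Positions are counted back from the start, -1 being the base just before it. Fos held TGACG at -66 to -62 and TATAAA at -33 to -28. Zfp36 held a CArG box at -58 to -49. Nr4a1, on the reverse strand, held TGACG at -69 to -65 and again at -40 to -36, so this motif occurred at both ends of the range of ratios. The Jund and Jun stretches held none of the 4 motifs as spelled. The Jun stretch does hold tgacatca, a longer variant of TGANTCA that the search did not cover. In the full windows, from 250 bases before to 50 after the start, TGACG was found in 5 of the 8 members (Fos, Fosb, Junb, Nr4a1 and Atf3) and in 20.8% of all 32851 windows of that length. The CArG box was in 1 of the 8 (Zfp36) and in 1.63% of all windows, and TATAAA in 2 of the 8 (Fos and Junb) and in 13.6%. In Junb the TATAAA lay after the annotated start, at bases 1 to 6, and not before it as in Fos. TGANTCA was in 0 of the 8 and in 7.81% of all windows. Further motifs were searched but not marked with capitals. TGACGTCA, the full form of the cyclic AMP response element, was in 0 of the 8 and in 1.79% of all windows. GCGNGGGCG was in 3 of the 8 (Fosb, Nr4a1 and Zfp36) and in 5.55%, and CCAAT in 3 of the 8 (Atf3, Jun and Junb) and in 37.4%. The GC content of the members' windows ran from 46.7% to 72.3%, and its median over all windows was 52.7%. A match of letters describes the sequence and does not show that a factor binds there, and a missing match says only that the letters are not in this window.

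Among the Fos genes, Fos had the lowest ratio of all members. Its probe set read 1424 on the allograft and 3757 on the autograft array, a log2 ratio of -1.40. The allograft intensity was 37.9% of the autograft intensity. Among the 10640 probe sets measured on both arrays above the floor, its ratio was the 14th lowest. Fosb, whose protein is a close relative of Fos, read 147 on the allograft and 251 on the autograft array. Since the allograft value was below the floor, the log2 ratio of -0.52 is a bound, and the allograft level of Fosb was at least 1.43-fold lower.

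The 3 Jun genes differed among themselves. Jund, the Jun gene known for steady expression in resting cells, read 2109 on the allograft and 3899.7 on the autograft array, a log2 ratio of -0.89. Junb, which can restrain growth in places where Jun promotes it, read 202 and 318 in the same order of arrays, a log2 ratio of -0.65. Its allograft value lay just above the floor. Jun itself was read by 2 probe sets, at 1427 in the allograft and 1418 in the autograft sample for the brighter (log2 ratio 0.01) and at 525 in the allograft and 498 in the autograft sample for the dimmer (log2 ratio 0.08). The ratios of these probe sets differed by 0.07, so both readings of Jun placed it near equality while the log2 ratio of Fos, its partner in AP-1, lay 1.41 below that of the brighter one. As a yardstick, the ratios of the brightest and next probe set of a gene differed with an SD of 0.44 over 1925 genes for which both were above the floor throughout. That SD describes disagreement between probe sets on the same RNA and is no measure of spread between animals.

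**Figure D1:**
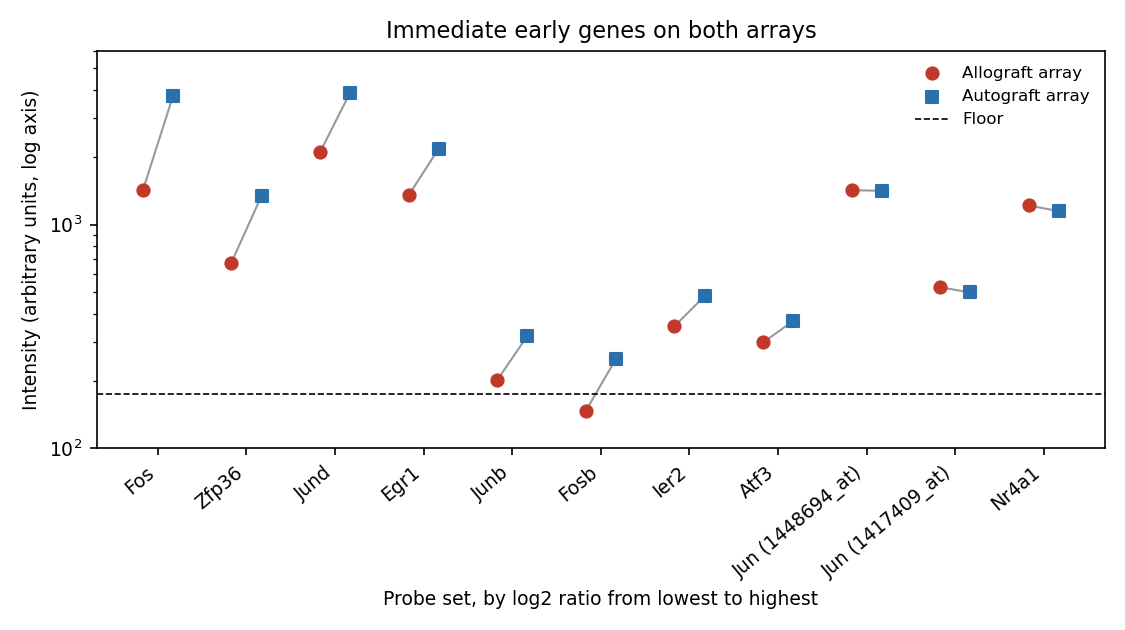
Intensity in arbitrary units (log axis) of each of the 11 probe sets on the allograft array (red circles, left of each pair) and the autograft array (blue squares, right), ordered from the lowest to the highest log2 ratio, with the floor of 175 as a dashed line. Fos has the widest gap (1424 in the allograft against 3757 in the autograft), Fosb crosses the floor, and both Jun probe sets and Nr4a1 lie almost level.

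The zinc finger factors divided in the same way as the Jun genes. Egr1, which switches on growth factor and matrix genes after a stimulus, read 1353 on the allograft and 2190.5 on the autograft array, a log2 ratio of -0.70. Nr4a1, an orphan nuclear receptor, read 1219 on the allograft and 1149.5 on the autograft array, a log2 ratio of 0.08. The log2 ratio of Egr1 was thus 0.78 below that of Nr4a1.

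Zfp36 had the second lowest ratio of the members, just short of 2-fold. It read 677.5 on the allograft and 1347 on the autograft array, a log2 ratio of -0.99, and the allograft intensity was 50.3% of the autograft intensity. The probe set carries the ending _a_at, which marks oligonucleotides that match several transcripts of a gene. Ier2 read 351.5 on the allograft and 479 on the autograft array (log2 ratio -0.45), and Atf3 read 297 and 371 in the same order (log2 ratio -0.32). These were the smallest of the negative ratios. With Ier2 barely past it, 7 of the 10 genes lay below minus the SD between probe sets of a gene, against 13.6% of all genes above the floor, and 3 (Jun, Nr4a1 and Atf3) lay within that SD of 0. Apart from Jun, no member had a further probe set with which to check its ratio.

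The members were spread over the range of intensities, in which the ratio of all probe sets drifts. Over 20 bins of mean log2 intensity, each with 532 probe sets, the median log2 ratio ran from -0.14 to 0.30, the highest being the brightest bin. Fos, Jund and Zfp36 lay below the 2.5th percentile of their own bin, and the other 7 probe sets with both values above the floor lay inside its central 95%. For Egr1 the margin was small, with a ratio of -0.695 where the 2.5th percentile of the bin was -0.699. The bins describe where the members lie on these arrays and are no test.

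**Figure D2:**
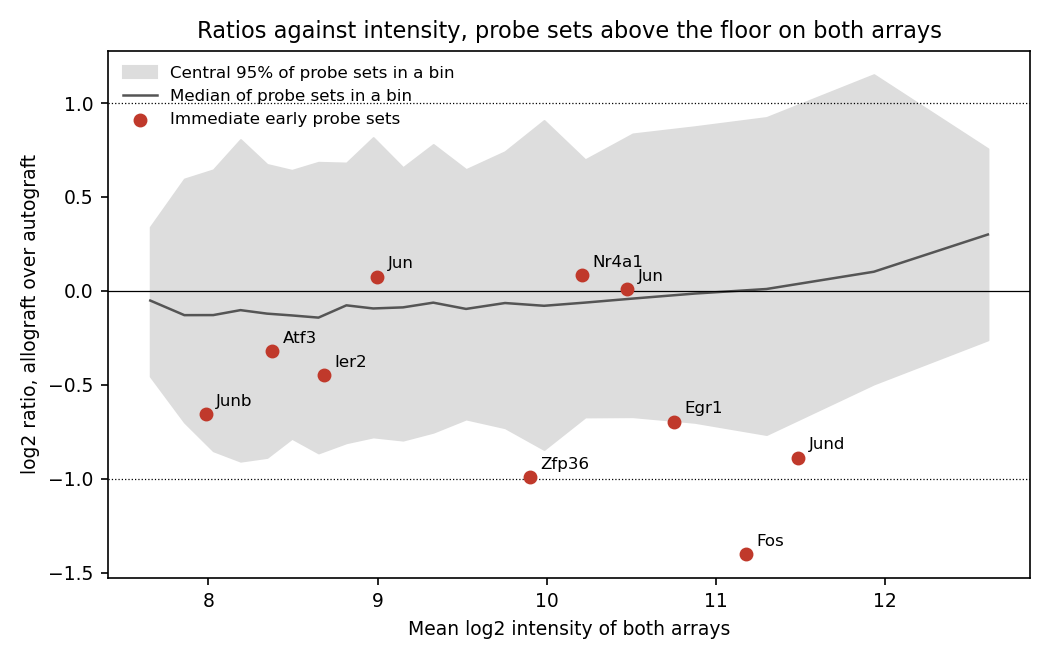
Log2 ratio of allograft over autograft against the mean log2 intensity of both arrays, for the 10 immediate early probe sets with both values above the floor (red points), with the median (line) and the central 95% (grey band) of the probe sets in each of 20 intensity bins, and 2-fold differences as dotted lines. Fos (-1.40), Zfp36 (-0.99) and Jund (-0.89) lie below the band, Egr1 (-0.695) lies at its lower edge, and Jun and Nr4a1 lie close to the median line. The band is joined by straight lines between bins.

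In the order of ratios over the 7101 genes above the floor on both arrays, Fos was the 10th from the lowest. Its neighbours were Col10a1, the collagen of hypertrophic cartilage (-1.51), and Ocstamp, which takes part in osteoclast fusion (-1.46), on the lower side, and 1810058I24Rik (-1.36) and Tle5 (-1.33), a relative of the Groucho corepressors, on the other. They are named for the likeness of their log2 ratio alone, over 1 pair of arrays.

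Other genes of the same regulatory layer were read from lists of related genes, each gene by its brightest probe set. Other AP-1, ATF and Maf factors had a median log2 ratio of -0.23 over 10 genes above the floor of 14 on the array, 7 of them below 0 and 3 above. The lowest were Fosl2, a Fos relative (-0.52, 179 on the allograft and 256 on the autograft array), Jdp2, a repressor that pairs with Jun proteins (-0.37), and Atf6, a sensor of unfolded protein (-0.36). The highest were Mafk (0.15), Atf4 (0.02, with a further probe set at 0.64) and Atf2 (0.02, with a further one at -0.16). Atf4 is the main factor of the integrated stress response. Fosl1, the remaining Fos gene, was below the floor on both arrays, at 145 in the allograft and 62.1 in the autograft sample. Not 1 of these genes was at least 2-fold apart, against 0.753% of all genes 2-fold lower and 0.868% 2-fold higher.

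Other early transcription factors had a median of -0.13 over 17 genes above the floor of 21, 11 of them below 0, 5 above and 1 at 0, with 0 at least 2-fold apart. Egr2, a relative of Egr1, was above the floor in the autograft alone (172 in the allograft against 276 in the autograft sample, a bound of -0.66), followed by Bhlhe40, a circadian repressor (-0.60), and Klf2, a factor of quiescent endothelium and T cells (-0.57). At the other end stood the acute phase factors Cebpb (0.53, 1280.3 in the allograft against 889 in the autograft sample) and Cebpd (0.36, with a further probe set at a bound of 0.33), with Klf10, a gene induced by TGF-beta, at 0.38. Relatives of Nr4a1 could not be compared, because Nr4a2 and Nr4a3 were below the floor on both arrays. Myc was below it as well, at 134 in the allograft and 174 in the autograft sample.

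Early signalling regulators and secreted products were centred on 0, with a median of -0.02 over 28 genes above the floor of 36, 15 below 0 and 13 above, and 0 at least 2-fold apart. Ccn1, a matrix-bound early gene product, was lowest at -0.79 (549.9 in the allograft against 948 in the autograft sample), and its other probe set stood at -0.44. Dusp6, a phosphatase of ERK, followed at -0.55 and Ccl2, the monocyte chemokine, at -0.48. Among the highest were Dusp2, another phosphatase of kinases (0.37), and Pim1, a survival kinase above the floor in the allograft alone (a bound of 0.33). Socs3, a cytokine feedback inhibitor, stood at 0.41 by its brightest probe set and at -0.58 and -0.68 by the others, so its direction is unsettled on these arrays.

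The kinases and factors that drive immediate early transcription, through serum response factor, its ELK partners and CREB, had a median of -0.08 over 15 genes above the floor of 19, 9 below 0 and 6 above, with 0 at least 2-fold apart. Srf itself read 445 on the allograft and 471 on the autograft array (-0.08). The lowest were Mrtfa, a coactivator of serum response factor (-0.70, 521.5 against 848 in the same order), Map2k2, a kinase of ERK (-0.57, and -0.60 by its second probe set), and Crebbp, a coactivator of CREB (-0.41). Map2k1, the sister kinase of Map2k2, was highest at 0.20, followed by Mapk9 (0.14, with a further probe set at -0.08) and Map2k3 (0.09, with a further one at -0.14).

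Genes described as AP-1 targets had ratios mostly above 0: the median was 0.37 over 14 genes above the floor of 19, 12 above 0 and 2 below, with 1 gene higher by 2-fold or more and 0 lower by as much. Col1a2, a chain of type I collagen, stood at 1.11 (5111 in the allograft against 2362 in the autograft sample), Acp5, the acid phosphatase of osteoclasts, at 0.97, and Mgp, a matrix inhibitor of calcification, at 0.94. The genes below 0 were Nfatc1, the main transcription factor of osteoclast formation (-0.61), and Ccnd1, cyclin D1 (-0.55). Plaur, a protease receptor, was the next lowest at 0.08. Many of these genes are bright, where the median ratio of all probe sets is above 0. After subtraction of the trend of the ratio with intensity the median of this list was 0.20, and after quantile normalization 0.18. A list of ATF4 and CHOP stress genes had a median of 0.09 over 9 genes above the floor of 12. It also holds genes of the wider unfolded protein response, such as Xbp1 and Hspa5. Atf3 belongs to the ATF4 and CHOP response but was counted with the members. The highest were Asns (0.53), Ppp1r15a (0.46) and Herpud1 (0.39, with a second probe set at -0.51). The lowest were Xbp1 (-0.35, with further probe sets at -0.48, -0.41 and 0.17), Chac1 (-0.27) and Ddit4 (-0.13). Atf3 itself, at -0.32, lay at the lower end of that range.

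**Figure D3:**
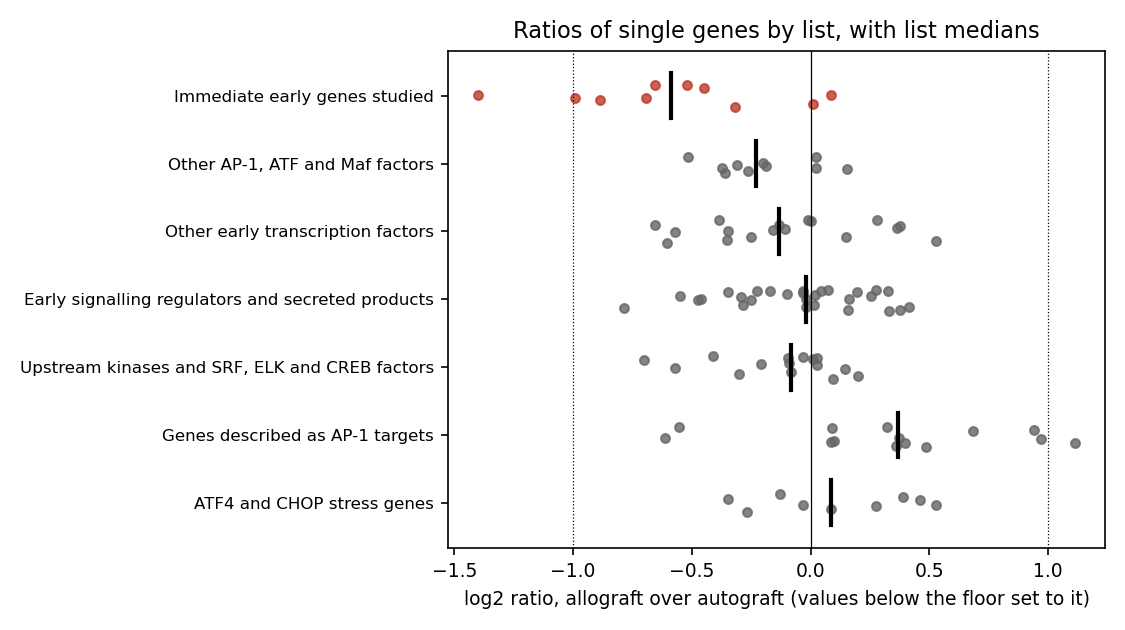
Log2 ratio of allograft over autograft for each gene above the floor on at least 1 array (points, shifted up or down at random within a row to separate them), for the 10 immediate early genes in red and the 6 lists of related genes in grey, with each list's median as a black bar and 2-fold differences as dotted lines. The median is -0.59 for the immediate early genes and lies between -0.23 and 0.37 for the other lists.

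Markers of the cells that a femur sample can hold differed between the arrays along with the members, and their part in the members' ratios was not tested. Genes of bone, cartilage, marrow and muscle were read above the floor on both arrays. Of the erythroid markers 7 of 7 had a ratio above 0 (median 0.89), with a summed intensity of 22608 in the allograft and 12497 in the autograft sample, and of the neutrophil markers 8 of 8 (median 0.37, 44479 in the allograft against 33905.5 in the autograft sample). Below 0 were 6 of 7 cartilage markers (median -0.66, 16735 against 20377 in the same order), 6 of 7 endothelial markers (median -0.31, 3174 against 3805) and 4 of 6 markers of osteoblasts and osteocytes (median -0.63, 17626 against 17577). Col1a1, the main chain of type I collagen, went furthest the other way among the osteoblast markers, at 4994 against 771 by the brighter of its 2 probe sets (log2 ratio 2.70). Macrophage markers were split, with 3 of 7 above 0 and a median of -0.04 (22266.5 against 19325), as were those of osteoclasts (2 of 4 above 0, median -0.32, 14890.4 against 11336). The osteoclast median ranged from -0.95 to 0.00 over the alternative settings. Skeletal muscle markers had a median of 0.34 with 5 of 8 above 0 (34035 against 25163), and of 0.08 after quantile normalization. Those of T and B cells had a median of 0.36 over the 3 above the floor (1543 against 1469.6), which turned to -0.32 for a floor at the 25th percentile and to -0.31 without a floor. The T cell genes Cd3e, Cd3g, Cd4 and Cd8a were below the floor on both arrays. For beta-actin the control probe set at the 3′ end read 1.77 times that at the 5′ end in the allograft and 1.19 times in the autograft, a ratio that moves with RNA integrity. For Gapdh the same ratio was 0.194 on the allograft array against 0.0349 on the autograft array. Its 5′ probe set was thus the brighter on both arrays, unlike that of beta-actin. In the autograft the 3′ set read 233 and the 5′ set 6670.7. The Gapdh ratio was therefore not read as RNA integrity.

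Fos had the lowest ratio of the members under every scaling and floor tried, while some of the others exchanged places. Under 7 other scalings and floors the log2 ratio of Fos lay between -1.46 and -1.34, that of Zfp36 between -0.99 and -0.92, that of Jund between -0.97 and -0.82, and that of Egr1 between -0.70 and -0.63. Jund lay below Zfp36 after quantile normalization (-0.97 for Jund against -0.95 for Zfp36) and after the lowess fit (-0.95 against -0.92). The brighter probe set of Jun stayed between 0.01 and 0.07 and Nr4a1 between 0.08 and 0.15. Ier2 lay between -0.45 and -0.34, so that under some settings it was within the SD between probe sets. Fosb moved furthest, between -0.77 and -0.44, since its allograft value lies under the floor at the median but above that at the 25th percentile, where its ratio was -0.77. There, and with no floor (-0.71), Fosb lay below Egr1 (-0.70 and -0.69).

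**Figure D4:**
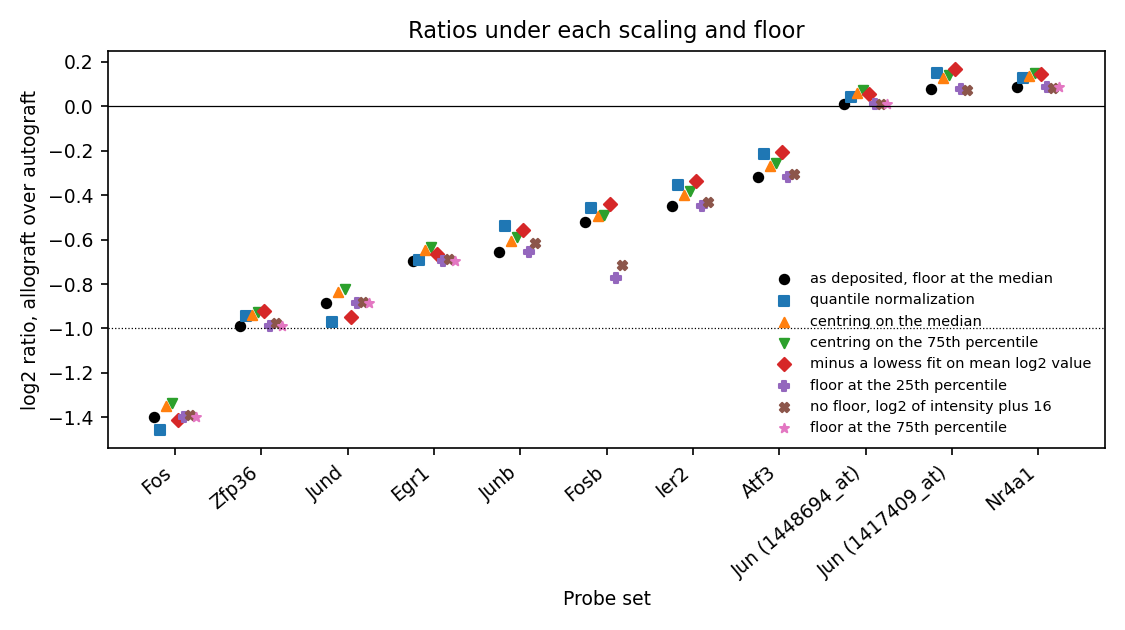
Log2 ratio of allograft over autograft for each of the 11 immediate early probe sets, as deposited with the floor at the median (black circles) and under other scalings and floors (other symbols; 7 for the probe sets above the highest floor, 6 for Junb, Fosb, Ier2, Atf3 and the dimmer Jun probe set), with the 2-fold difference as a dotted line. Fos lies below the dotted line under every setting shown, Zfp36 and Jund just above it, and Jun and Nr4a1 above 0.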

How the data were processed

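The values deposited by the authors are linear intensities of 22690 probe sets on each array. How they were background-corrected and scaled, and with which software, is not given in the sources used here. No detection calls were used. The mean of the intensities between the 2nd and 98th percentile was 499.7 for the allograft and 499.6 for the autograft, so the values were used as deposited. After removal of 64 controls, 22626 probe sets remained, 20380 with 1 gene symbol in the platform annotation. Entrez identifiers of 20351 of these matched the RefSeq gene table of GRCm38.p6. The floor of 175.2 is the median of the non-control intensities. For a gene in a list the brightest probe set by mean intensity was used, and a 2-fold difference was the threshold for counts.

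The members and the lists were chosen with earlier results of these data known. Besides the members, the genes named are up to 3 highest and 3 lowest of each list that is no marker list, and the 2 genes on each side of Fos in the order of ratios. Genes below the floor on both arrays (Fosl1, Nr4a2, Nr4a3, Myc and the T cell genes), Srf, and Col1a1 of a marker list were named after their values were seen. Hspa5 is named only as an example of what its list holds. No test was made, since each graft type has 1 array. The alternatives were quantile normalization, centring on the median or the 75th percentile, subtraction of a lowess fit (span 0.4) of the ratio on mean log2 intensity, a floor at the 25th or at the 75th percentile, an offset of 16 added before log2 in place of a floor, thresholds of 1.5-fold and 4-fold, for a gene the mean over its probe sets or its dimmest one, and probe sets without the endings _x_at, _s_at and _a_at. The counting was tried on simulated data with 4-fold changes in probe sets well above the floor and little noise. That checks the code and not how reliable the counts on these arrays are. Python 3.11.15 was used with statsmodels 0.14.6, pandas 2.3.3, numpy 2.4.6 and matplotlib 3.10.9.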

Additional observations from a re-analysis of the deposited data

How the results depend on the processing

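The count of member probe sets at least 2-fold lower was 1 under the 7 other scalings and floors and without the probe sets marked as shared. Over all probe sets, the share lower by as much under those 7 ran from 0.417% (lowess fit) to 4.17% (no floor). The count of member probe sets at least 2-fold higher was 0 under these alternatives and under both other thresholds. With a threshold of 1.5-fold, 5 member probe sets were lower (6.36% of all probe sets above the floor), and with 4-fold 0 were (0.00834%). Raising the floor to the 75th percentile, which leaves 6 members, gave 4 genes below 0 and a median of -0.79. Under the other alternatives the median lay between -0.67 and -0.50. Of 150 list medians under alternatives 18 moved by more than the SD between probe sets divided by the square root of the list's size. Of these 18, those that changed sign were the T and B cell median (to -0.32 and -0.31, as given above), the osteoclast median (to 0.00 with the highest floor) and the ATF4 and CHOP median (to -0.06 with the mean over a gene's probe sets). Medians near 0 of macrophage markers, early signalling regulators and upstream kinases changed sign by less, lying between 0.01 and 0.07 where above 0. Over all probe sets above the floor on at least 1 array, 88 were 2-fold lower and 137 higher as deposited, against 55 and 147 after quantile normalization, 70 and 163 after centring on the median, 64 and 167 after centring on the 75th percentile, 50 and 154 after the lowess fit, 464 and 313 for a floor at the 25th percentile, 27 and 79 for one at the 75th, and 943 and 550 with no floor. The number of probe sets counted changed as well. It was 11987 as deposited, 17858 for a floor at the 25th percentile, 6097 for one at the 75th and 22626 with no floor. Under the other scalings it lay between 11941 and 11987. No paired analysis was possible because each graft type has 1 array and the labels carry no replicate numbers. Signal over background limits Fosb and Junb most, whose allograft intensities lie below and near the floor.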
